A study of Mus musculus with 12 samples.

Results

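Atg5 knockout (KO) BV2 cells given interferon gamma (IFNγ) were compared with Atg5 KO BV2 cells kept in medium, gene by gene. Of 46078 genes listed, 10981 had a log2 value of 3 or more in 3 or more of the 12 libraries of the series, and each of these was tested. The series holds 4 groups of 3 libraries, all from BV2, an immortalised mouse microglial line. They are Atg5 KO cells with 1 U/mL IFNγ for 24 h, Atg5 KO cells in medium for 24 h, wild type (WT) cells with the same IFNγ, and WT cells in medium. The question was which transcripts IFNγ raises or lowers in microglial cells that lack Atg5. How the knockout was made and how many KO clones were used are not given in the sources used here, and a single cultured line stands for microglia. Each replicate was generated independently per the labels' protocols, and the letters A, B and C name the replicates of a group.

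IFNγ binds a receptor made of Ifngr1 and Ifngr2 chains, whose kinases Jak1 and Jak2 phosphorylate transcription factors of the STAT family. STAT dimers bind a palindromic DNA element and turn on a first set of genes, among them the factor Irf1, which with its relatives turns on a further set through interferon response elements. In macrophages and microglia the outcome is known as activation: antigen presentation, chemokines, GTPases that attack vacuoles holding pathogens, and antimicrobial metabolites. Atg5 is part of the conjugation machinery that builds autophagosomes, and it is also needed to place several IFNγ-induced GTPases on such vacuoles.

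Reads came from the 3' ends of poly-A RNA of the cytosol, with nuclei removed, and numbered 3329849 to 7330435 in the 6 Atg5 KO libraries. Each value, called a log2 value below, is the log2 of 1 plus the normalised count, and values are given in the order A, B, C. Of 14 markers of microglia and macrophages all were measured, with a summed level of 1967 to 2525 RPM (reads scaled to a common library total) with IFNγ, against 1876 to 2327 in medium. Aif1 and C1qa among them rose and Trem2 fell. Markers of NK cells, neutrophils and epithelial cells had no read in any Atg5 KO library. Those of fibroblasts, neurons, astrocytes, oligodendrocytes, T cells and B cells summed to at most 2.20 RPM. Endothelial markers summed to 47.5 to 74.8 RPM with IFNγ, against 29.1 to 34.4 in medium, and dendritic cell markers to 5.05 to 24.7, against 2.37 to 4.40. The endothelial receptor gene Kdr (log2 change 1.12, adjusted p = 0.00941) and the dendritic cell receptor gene Clec9a account for the calls in those lists, and their part in other results was not tested. Kdr had 1114 reads with IFNγ and 471 in medium. Of the other endothelial markers Vwf had 5 and 24 reads, Pecam1 had 1 and 0, and Cdh5 and Tek had none. Clec9a had 228 reads against none, while Itgax had 46 and 43, Zbtb46 10 and 7, and Xcr1 4 and 0. Flt3 and Siglech had none. The transcript of Atg5 itself had log2 values of 8.83, 8.74 and 8.77 in the IFNγ libraries and 8.68, 9.02 and 8.84 in the medium libraries; reads from a 3' end need not cross an edited site, so they do not check the genotype. In bulk RNA of a whole culture, fewer cells expressing a gene and less RNA of it per cell cannot be told apart.

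IFNγ changed 808 genes in Atg5 KO cells, 7.36% of those tested, by limma's moderated test with a Benjamini-Hochberg adjusted p under 0.05. Of these, 513 rose (4.67%) and 295 fell (2.69%). The increases were the larger: their median log2 change was 1.67 and 137 of them were 3 or more, against a median of -1.11 and 18 genes of that size among the decreases. The genes that rose took 6.16 ± 0.66% of all reads with IFNγ, against 2.38 ± 0.11% in medium (SD, n = 3 each), and those that fell took 1.40 ± 0.09%, against 2.89 ± 0.13%. Both sets were chosen on the same libraries, so the direction of these shifts was set by the choice, and they only describe its size in reads. The IFNγ and medium libraries did not overlap for 507 of the 513 and 293 of the 295, where 24.4% of all tested genes did not overlap in either direction. As the calls were made on these same libraries, such separation follows largely from the choice of genes and is no further evidence for them. Among the IFNγ libraries, C lay closest to medium: over the genes that rose, its median distance from the medium mean was 1.55, against 1.75 in A and 1.74 in B. The counts depended on single libraries: without IFNγ library A the fit called 356 higher and 168 lower, and without medium library A 371 and 142. A second fit to the 6 Atg5 KO libraries alone called 405 and 193. On data simulated for this comparison, 100 genes were changed 4-fold and 100 genes 2-fold among 10981, fewer than the 808 called here. Of those changed 4-fold 81% were recovered and of those changed 2-fold 36%. In that setting small changes were thus often missed at this depth and number of libraries, and recovery with more changed genes was not tested.

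**Figure D1:**
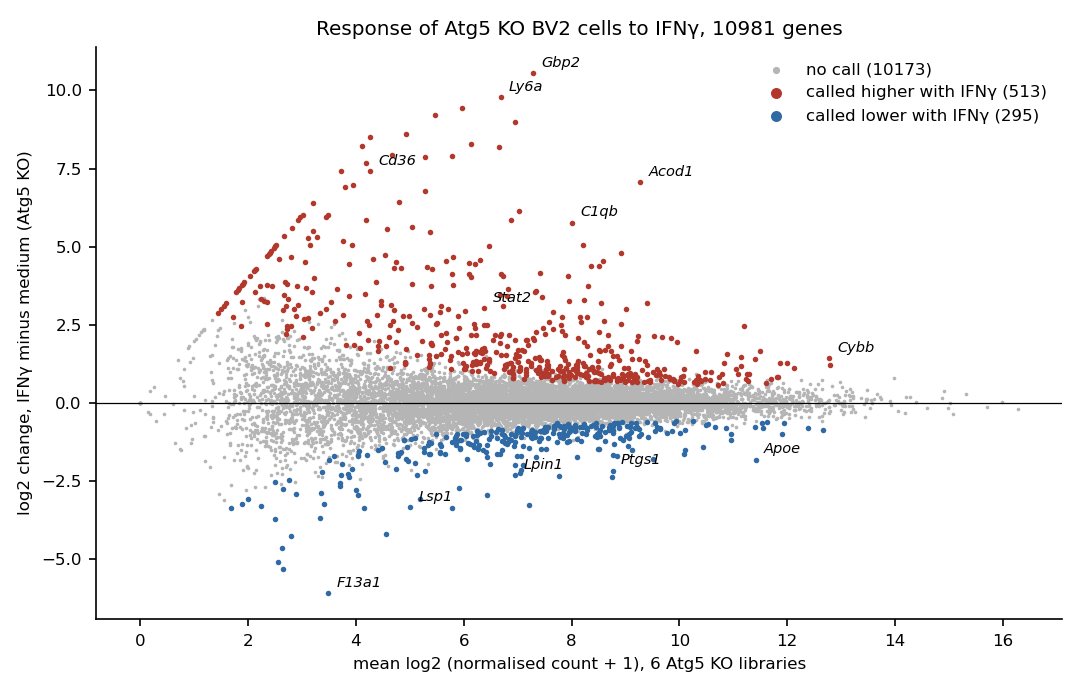
Each point is 1 of 10981 genes: the horizontal axis is its mean log2 value over the 6 Atg5 KO libraries and the vertical axis its log2 change, IFNγ minus medium. Red points (513) were called higher and blue points (295) lower. The straight upper edge at low means is formed by genes with no read in medium, whose plotted change depends on the 1 added to each count.

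Guanylate-binding proteins, GTPases that assemble on pathogen vacuoles, were among the largest increases. All 7 measured members rose, where 4.67% of all tested genes did. Gbp2 (ENSMUSG00000028270, chromosome 3, 142620602 to 142638008 on GRCm38) had log2 values of 13.05, 12.72 and 11.93 with IFNγ, against 4.99, 0.00 and 1.04 in medium (log2 change 10.56, SE 0.85, adjusted p = 5.84e-08). In brackets here and below stand the log2 change, IFNγ minus medium, its standard error and, where given, the adjusted p, which was under 0.05 for every gene said to rise or fall. Gbp3 had 11.06, 10.69 and 10.49 with IFNγ, against 3.19, 0.82 and 3.66 in medium (log2 change 8.19, SE 0.52, adjusted p = 2.79e-09). Its neighbour Gbp7 had 9.83, 9.82 and 9.59 with IFNγ, against 4.46, 0.00 and 1.04 in medium (log2 change 7.91, SE 0.74, adjusted p = 4.89e-07). Every IFNγ library stood far above every medium library for these genes, and within medium library A held the highest level of Gbp2 and Gbp7. Gbp5, which also promotes inflammasome assembly, had 867 reads with IFNγ and 1 in medium, a ratio of 770 (95% counting interval 138 to 30460). Gbp4, with 287 reads against 1, had a ratio of 255 (95% counting interval 45.4 to 10106). With no read in medium, Gbp6 was at least 25.8-fold higher and Gbp9 at least 23.7-fold higher, against a floor of 3 reads over the 3 libraries. The adjusted p of Gbp9 was 0.0519 without IFNγ library A. Close paralogs in this family, as in the others of this kind below, can share reads, so the split between members is uncertain.

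Immunity-related GTPases, which extract lipids from or break open such vacuoles, rose in 14 of 16 measured members, where 4.67% of all tested genes rose. Iigp1 had log2 values of 12.16, 11.47 and 10.70 with IFNγ, against 3.19, 0.00 and 4.17 in medium (log2 change 8.99, SE 0.80, adjusted p = 2.44e-07). Gm4951 had 9.88, 9.42 and 8.35 with IFNγ, against 3.19, 0.82 and 0.00 in medium (7.88, SE 0.68). Irgm1, a regulatory member that guards host membranes, had 8.32, 8.09 and 7.97 with IFNγ, against 2.55, 4.27 and 3.54 in medium (4.67, SE 0.55). Tgtp2 had 1158 reads with IFNγ and none in medium, at least 343-fold higher, while its near copy Tgtp1 had 551 reads against 1, a ratio of 490 (95% counting interval 87.5 to 19370). Gm12250 had 2005 reads against 2, a ratio of 891 (95% counting interval 246 to 7360) and Gm12185 290 against 1, a ratio of 258 (95% counting interval 45.9 to 10211). The median log2 change of the list was 4.92, or 4.87 with members unread in medium set at the floor, against 0.01 over all tested genes. Voom on the recovered reads did not call Tgtp1 (adjusted p = 0.103).

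**Figure D2:**
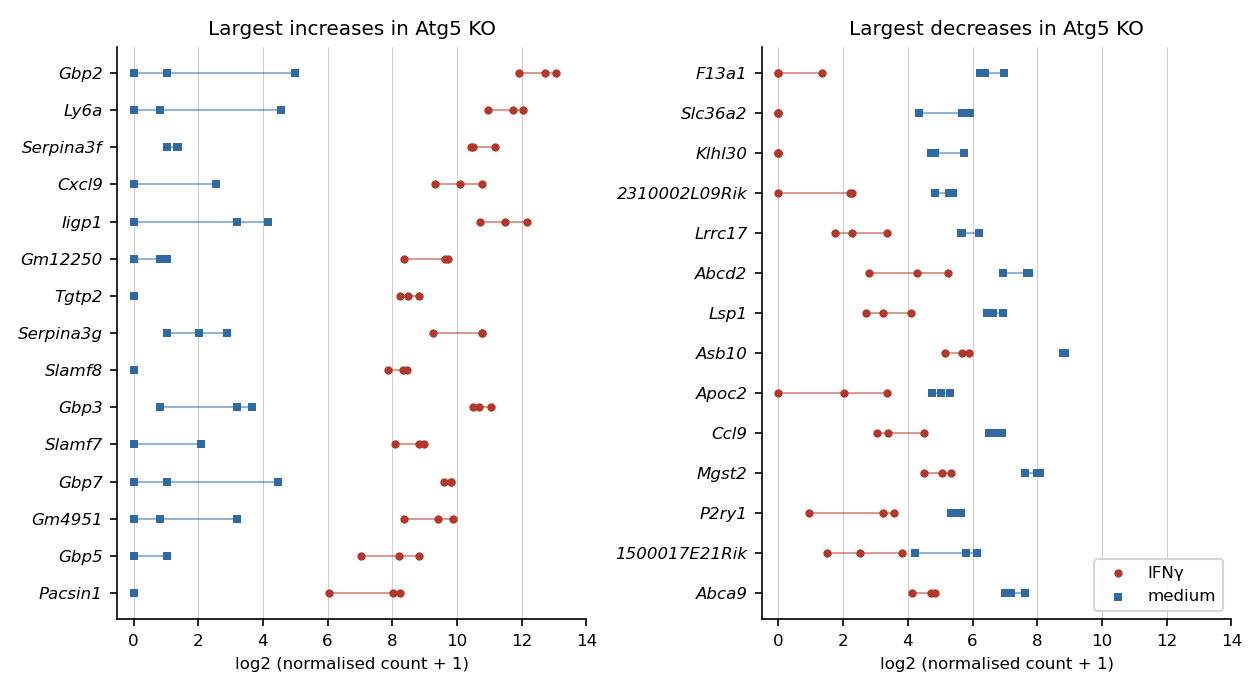
Log2 values of the 15 genes with the largest increase (left) and of 14 of the 15 with the largest decrease (right) in Atg5 KO cells, 1 symbol per library: red circles IFNγ, blue squares medium. Only genes whose groups did not overlap and whose higher group averaged 5 or more were taken, so that each row separates by choice; medium values of Gbp2, Ly6a, Iigp1 and Gbp7 spread over 4 log2 units or more. The order of rows with no read in a group depends on the 1 added to each count.

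Other genes of the same size encoded surface proteins, serine protease inhibitors and an endocytic adaptor. Ly6a, a GPI-anchored surface protein also called Sca-1, had log2 values of 11.72, 12.05 and 10.96 with IFNγ, against 4.57, 0.82 and 0.00 in medium (log2 change 9.78, SE 0.75, adjusted p = 3.5e-08). The serine protease inhibitor gene Serpina3f had 11.18, 10.48 and 10.42 with IFNγ, against 1.39, 1.34 and 1.04 in medium (9.43, SE 0.72). Serpina3g, a paralog in the same multigene cluster, had 10.79, 10.77 and 9.25 with IFNγ, against 2.90, 2.02 and 1.04 in medium (8.28, SE 0.79). The lowest treated value of each of these 3 genes was several log2 units above its highest medium value. Slamf7, a receptor of the signalling lymphocytic activation family on macrophages, had 1272 reads with IFNγ against 2 in medium, a ratio of 565 (95% counting interval 156 to 4671). Slamf8, of the same family, had 957 reads against none (at least 283-fold higher). Pacsin1, known as an endocytic adaptor of neurons, had 621 reads with IFNγ and none in medium (at least 184-fold higher). Its log2 values with IFNγ were 8.23, 8.04 and 6.04, and voom on the recovered reads gave an adjusted p of 0.0538. Over the 15 genes with the largest increase, the summed level was 5041, 4567 and 2476 RPM with IFNγ, against 21.3, 1.47 and 6.52 in medium. Medium library A thus held a trace of these transcripts, at a level well under those of the treated libraries, and its origin was not tested.

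Interferon elements were searched for in the bases around the start of each gene. A window from 250 bases before to 50 bases after the start, from the RefSeq promoter table on GRCm38.p6, was found for 414 of the 513 genes that rose, 230 of the 295 that fell and 8463 of all 10981. It was searched on both strands for TTCNNNGAA, the core that STAT dimers bind, and for the IRF element, which is TTTC, any pair of bases, then TTTC again. The IRF element was found in 16.4% of the genes that rose, 3.04% of those that fell and 3.93% of all. TTCNNNGAA was found in 13.3%, 7.83% and 8.03%. Of the 70 genes with a window among the 100 largest increases, 40.0% held the IRF element and 18.6% TTCNNNGAA. Matches to both motifs overlapped each other in 13 of the 10810 windows of these genes, some of which have several starts. A match is a description of letters and not a measured binding site.

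The 250 bases before the start are printed for 8 of the largest increases, since each carries at least 1 of the 2 kinds of match and some carry both. They run 5′ to 3′ on the gene's strand, from RefSeq on GRCm38.p6, and capitals mark the matches on either strand. Those of Gbp2, Gbp3, Gbp5 and Gbp7 come from a single cluster on chromosome 3. Distances are to the RefSeq start, which can differ from the start in the annotation used for gene positions. That annotation starts Gm12250, as a processed pseudogene, at 58187739, downstream of the printed window. It starts Gbp2 at 142620602, inside the printed window.
Gbp2, chr3:142620413-142620662, plus strand: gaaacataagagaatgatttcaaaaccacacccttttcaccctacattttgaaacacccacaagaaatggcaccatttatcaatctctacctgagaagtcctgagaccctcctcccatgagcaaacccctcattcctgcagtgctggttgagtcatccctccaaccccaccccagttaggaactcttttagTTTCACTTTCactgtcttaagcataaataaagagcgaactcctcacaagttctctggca
Gbp3, chr3:142559794-142560043, plus strand: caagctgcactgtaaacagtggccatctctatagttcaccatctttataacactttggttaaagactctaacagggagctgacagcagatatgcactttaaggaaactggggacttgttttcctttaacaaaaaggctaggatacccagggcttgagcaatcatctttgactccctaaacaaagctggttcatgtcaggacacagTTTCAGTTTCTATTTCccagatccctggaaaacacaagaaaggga
Gbp5, chr3:142496684-142496933, plus strand: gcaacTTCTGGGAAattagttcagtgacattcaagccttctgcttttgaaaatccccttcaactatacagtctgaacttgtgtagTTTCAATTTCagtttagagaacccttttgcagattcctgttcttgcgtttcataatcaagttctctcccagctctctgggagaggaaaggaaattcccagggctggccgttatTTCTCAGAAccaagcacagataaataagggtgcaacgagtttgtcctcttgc
Gbp7, chr3:142530086-142530335, plus strand: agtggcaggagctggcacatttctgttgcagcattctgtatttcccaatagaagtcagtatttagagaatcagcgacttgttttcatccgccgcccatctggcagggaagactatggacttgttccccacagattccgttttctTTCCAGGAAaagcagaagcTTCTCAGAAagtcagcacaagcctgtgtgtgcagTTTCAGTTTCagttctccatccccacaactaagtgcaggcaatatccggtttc
Gm12250, chr11:58183593-58183842, plus strand: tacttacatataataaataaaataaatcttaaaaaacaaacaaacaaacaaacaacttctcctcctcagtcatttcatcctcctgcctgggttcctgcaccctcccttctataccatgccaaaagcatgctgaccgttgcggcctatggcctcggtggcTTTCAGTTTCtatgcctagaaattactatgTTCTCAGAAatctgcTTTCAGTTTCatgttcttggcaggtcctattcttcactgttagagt
Tgtp2, chr11:49064213-49064462, minus strand: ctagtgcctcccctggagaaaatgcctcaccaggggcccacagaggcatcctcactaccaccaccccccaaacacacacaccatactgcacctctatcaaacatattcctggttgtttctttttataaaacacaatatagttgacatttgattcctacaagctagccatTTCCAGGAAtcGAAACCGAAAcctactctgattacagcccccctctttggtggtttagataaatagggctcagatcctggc
Serpina3g, chr12:104235897-104236146, plus strand: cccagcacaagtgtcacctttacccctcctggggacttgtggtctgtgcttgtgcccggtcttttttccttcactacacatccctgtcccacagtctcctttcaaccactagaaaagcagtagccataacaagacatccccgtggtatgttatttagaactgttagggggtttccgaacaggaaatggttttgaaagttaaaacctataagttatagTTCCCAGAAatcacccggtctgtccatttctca
Slamf8, chr1:172590569-172590818, minus strand: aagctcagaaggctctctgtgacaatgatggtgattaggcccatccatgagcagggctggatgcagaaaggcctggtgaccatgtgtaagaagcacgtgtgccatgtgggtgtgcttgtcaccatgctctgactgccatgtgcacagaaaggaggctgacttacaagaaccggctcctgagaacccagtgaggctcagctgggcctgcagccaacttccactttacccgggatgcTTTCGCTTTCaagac

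In Gbp2 the capitals are an IRF element that begins 59 bases before the start, and in Gbp3 they begin 45 and 39 bases before it and run together. Gbp7 holds TTCNNNGAA at 106 and 87 bases and the IRF element at 53, and Gbp5 holds TTCNNNGAA at 245 and 52 bases and the IRF element at 165. In Tgtp2 the TTCNNNGAA at 81 bases and the IRF element at 70 lie side by side, and Gm12250 has TTCNNNGAA at 61 between a pair of IRF elements at 91 and 46. Serpina3g has a lone TTCNNNGAA at 33 bases and Slamf8 a lone IRF element at 15. In these 8 windows the matches thus differ in kind, number and place, while each of the 8 genes was low in every medium library and far higher in every treated one.

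Of the 14 measured genes of the JAK-STAT pathway 4 rose (28.6%) and none fell, and Stat2, Jak2 and Stat3 were among those that rose. Stat2, known from type I interferon signalling, had log2 values of 7.93, 7.86 and 7.90 with IFNγ, against 4.66, 4.16 and 5.76 in medium (log2 change 3.04, SE 0.37, adjusted p = 1.3e-05). Jak2 had 7.41, 7.38 and 6.93 with IFNγ, against 5.13, 5.77 and 5.58 in medium (1.75, SE 0.29). Stat3 had 9.67, 9.88 and 9.30 with IFNγ, against 8.57, 8.31 and 8.59 in medium (1.13, SE 0.22). In each of these genes the treated libraries lay above the untreated ones. The receptor chains did not pass: Ifngr1 had 7.31, 7.005 and 6.93 with IFNγ, against 6.75, 6.88 and 7.22 in medium (adjusted p = 0.884). Ifngr2 had 8.62, 9.01 and 10.08 with IFNγ, against 8.82, 8.34 and 9.63 in medium (adjusted p = 0.668), and for both chains the groups overlapped. Jak1 differed by 0.35 (SE 0.18, adjusted p = 0.294). Of 17 feedback genes 3 rose, or 17.6%, where 4.67% of all tested genes did. Socs1, the inhibitor of JAK kinases, had 7.19, 7.17 and 5.52 with IFNγ, against 2.55, 0.82 and 2.66 in medium (4.62, SE 0.76). Usp18, which restrains type I interferon receptors, had 7.30, 7.74 and 7.41 with IFNγ, against 2.55, 3.11 and 3.78 in medium (4.34, SE 0.34). Ptpn2, a phosphatase of JAK-STAT signalling, had 9.61, 8.94 and 9.10 with IFNγ, against 8.46, 8.33 and 8.23 in medium (0.87, SE 0.21), and its call was lost without IFNγ library A (adjusted p = 0.0887). Voom did not call Socs1 (adjusted p = 0.0891).

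Among IRF transcription factors and their partners, 9 of 16 rose and none fell, where 4.67% of all tested genes rose and 2.69% fell. Irf1 had log2 values of 11.22, 11.02 and 9.86 with IFNγ, against 6.67, 5.73 and 6.56 in medium (log2 change 4.38, SE 0.45, adjusted p = 1.46e-06), and its lowest treated library was C. Irf7, the amplifier of type I interferon genes, had 7.96, 8.08 and 7.47 with IFNγ, against 4.66, 4.09 and 2.39 in medium (4.12, SE 0.46). Irf9, a DNA-binding partner of Stat2, had 8.40, 7.89 and 7.47 with IFNγ, against 5.38, 5.64 and 6.24 in medium (2.17, SE 0.30). Batf2, a partner of Irf1 in macrophages, had 109 reads with IFNγ and none in medium, at least 32.3-fold higher. Nmi, which binds STAT proteins, had 9.27, 9.18 and 10.52 with IFNγ, against 6.71, 6.64 and 7.40 in medium (2.74, SE 0.31).

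Both arms of antigen presentation rose. Of 9 class I heavy chain genes with B2m, 8 rose, and the list's median log2 change was 2.03. B2m, the light chain, had log2 values of 13.23, 13.69 and 13.28 with IFNγ, against 12.15, 11.97 and 12.46 in medium (1.20, SE 0.23). H2-K1, a classical heavy chain, had 8.87, 8.87 and 8.78 with IFNγ, against 7.73, 7.25 and 7.74 in medium (1.27, SE 0.21). The non-classical chain H2-T23, known as Qa-1, had 8.51, 7.66 and 8.33 with IFNγ, against 3.96, 3.23 and 4.94 in medium (4.12, SE 0.44). H2-M3, which presents formylated peptides, had 7.38, 8.11 and 7.38 with IFNγ, against 4.75, 5.18 and 5.44 in medium (2.50, SE 0.35). The non-classical chains H2-T23 and H2-M3 thus changed by more on the log2 scale than B2m and H2-K1. Of 15 genes that make and load class I peptides, 11 rose. Psmb9, a subunit of the immunoproteasome, had 9.65, 9.63 and 9.22 with IFNγ, against 5.13, 5.57 and 5.29 in medium (4.17, SE 0.38), and the peptide transporter chains Tap1 and Tap2 changed by 4.07 (SE 0.40) and 3.64 (SE 0.34). Tapbpl, a peptide editor, had 8.90, 8.31 and 8.37 with IFNγ, against 5.20, 4.87 and 5.21 in medium (3.43, SE 0.36). Psme1, an activator of the proteasome, had 12.82, 11.95 and 12.54 with IFNγ, against 10.26, 9.81 and 9.85 in medium (2.46, SE 0.22). Erap1, which trims peptides, had 9.57, 9.49 and 10.24 with IFNγ, against 7.35, 7.56 and 7.90 in medium (2.16, SE 0.22). Of the 34 subunits of the standard proteasome Psma3 (0.93, SE 0.20) and Psmb7 (0.66, SE 0.18) rose, a share of 5.88%, near the 4.67% of all tested genes. Psmb7 lost its call without IFNγ library A (adjusted p = 0.195), medium library A (0.122) or medium library C (0.0758), in the Atg5 KO libraries alone (0.0932) and without the mean-variance trend (0.0783).

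Of 9 genes of the class II list 8 rose, where 4.67% of all tested genes did. Some of the 8 rose from a few reads or none in medium. H2-Aa had log2 values of 5.64, 6.58 and 3.82 with IFNγ, against 0.00, 0.00 and 0.00 in medium, with 161 reads against none (at least 47.7-fold higher). H2-Eb1 had 5.49, 5.66 and 4.23 with IFNγ, against 1.39, 0.00 and 0.00 in medium, with 114 reads against 1, a ratio of 101 (95% counting interval 17.8 to 4035). H2-Ab1, the partner chain of H2-Aa, had 76 reads against none (at least 22.5-fold higher). Library C held the lowest treated level of each of these chains. The peptide exchange chain H2-DMa had 6.55, 6.43 and 4.77 with IFNγ, against 0.00, 0.82 and 1.04 in medium. Its partner H2-DMb1 had 5.53, 5.66 and 3.56 with IFNγ, against 0.00, 0.82 and 2.88 in medium. Ciita, which switches on class II genes, had 4.88, 6.16 and 4.11 with IFNγ, against 0.00, 0.00 and 0.00 in medium, which is 122 reads against none (at least 36.1-fold higher). Ctss, a protease that trims the invariant chain, was abundant in both groups and had 12.92, 12.30 and 12.71 with IFNγ, against 11.43, 11.66 and 10.98 in medium (1.29, SE 0.21). Several genes with few reads in medium lost their call under other settings: Ciita lost it without IFNγ library B (adjusted p = 0.0767) and without the mean-variance trend (0.0627), and H2-Ab1 without IFNγ library A (0.0512) or B (0.0547). With voom on the recovered reads Ciita (0.161), H2-Ab1 (0.0615), H2-DMa (0.103) and H2-DMb1 (0.0855) did not pass.

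**Figure D3:**
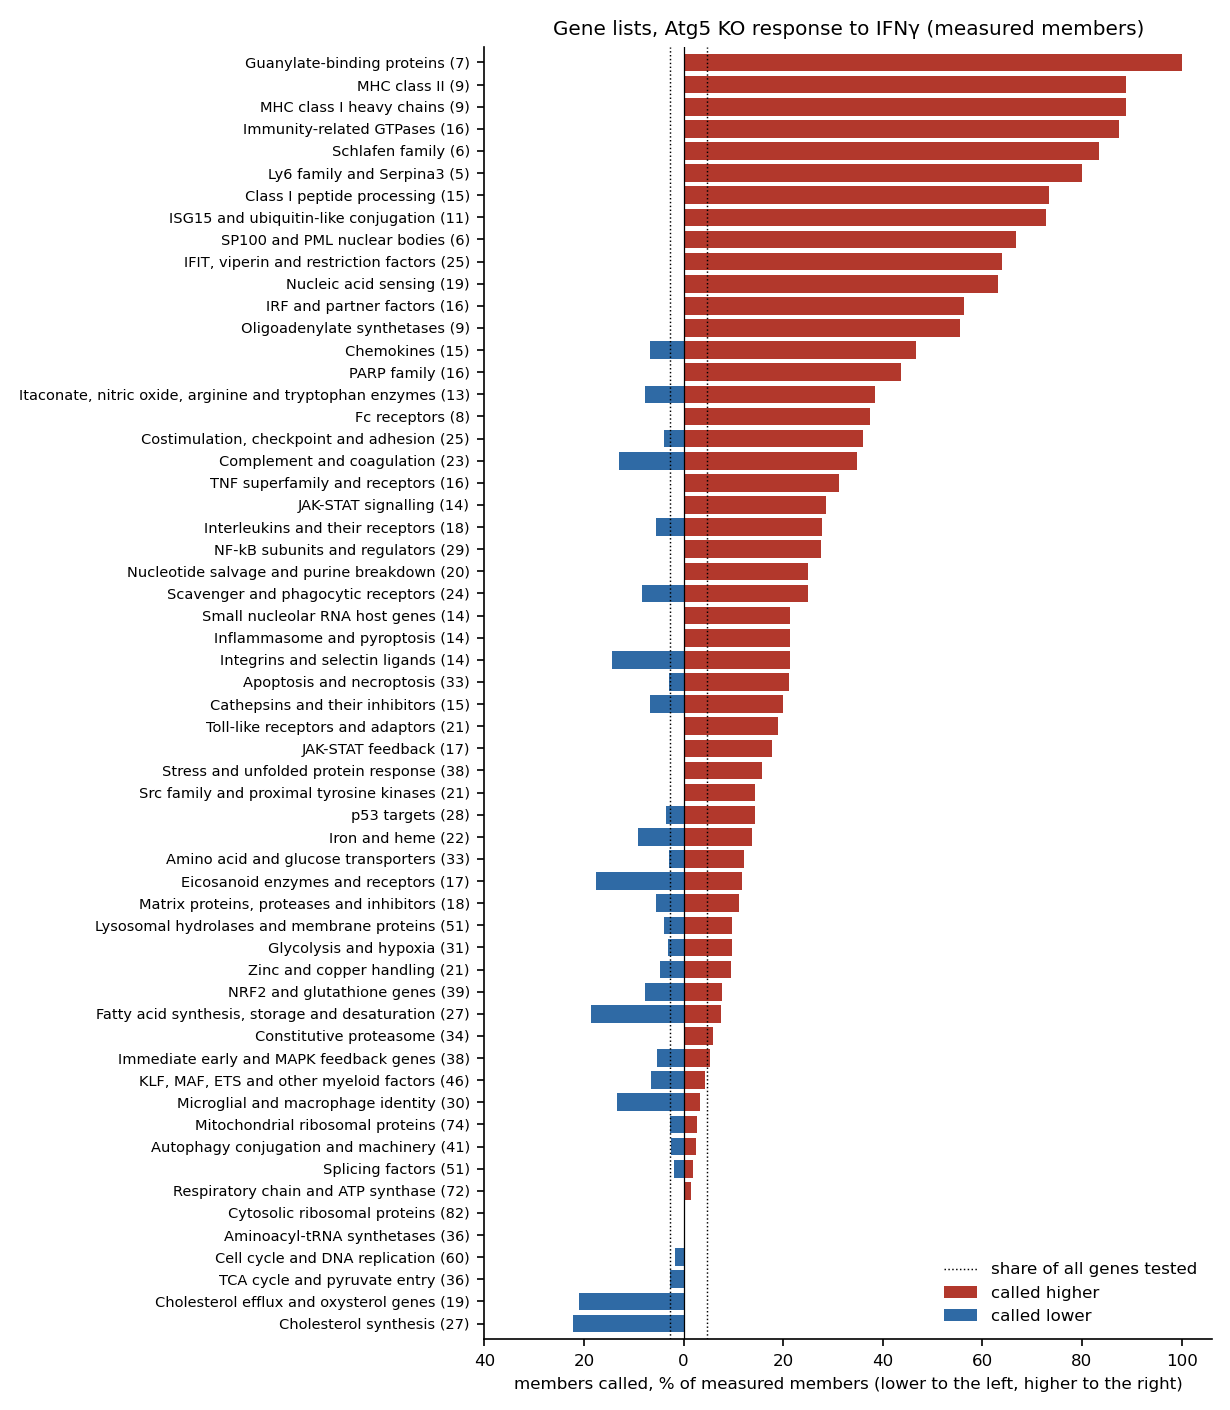
Share of measured members called higher (red, to the right) and lower (blue, to the left) in the Atg5 KO comparison, for all but 1 of the gene lists with at least 3 calls or at least 30 measured members; the number measured stands in brackets. The dotted lines mark the shares over all tested genes, 4.67% higher and 2.69% lower. Guanylate-binding proteins stand at the top with 7 of 7 higher, and cholesterol synthesis at the bottom with 6 of 27 lower.

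Chemokines split: 7 of 15 rose (46.7%) and 1 fell (6.67%), where 4.67% and 2.69% of all tested genes did. Cxcl9, which draws activated T cells, had log2 values of 10.78, 10.10 and 9.33 with IFNγ, against 2.55, 0.00 and 0.00 in medium, that is 3506 reads against 3, a ratio of 1038 (95% counting interval 355 to 5037). Cxcl10, a ligand of the same receptor, had 9.86, 9.31 and 7.73 with IFNγ, against 4.57, 2.83 and 4.48 in medium (5.01, SE 0.66). Monocyte attractants followed: Ccl2 had 9.76, 10.47 and 9.48 with IFNγ, against 7.26, 7.30 and 7.29 in medium (2.62, SE 0.33). Ccl12, in the same cluster on chromosome 11, had 267 reads against none (at least 79.1-fold higher). Ccl5 had 5.33, 5.85 and 5.19 with IFNγ, against 1.39, 2.02 and 2.07 in medium (3.63, SE 0.38). Ccl9, a myeloid attractant also on chromosome 11, went the other way, with 3.39, 3.06 and 4.50 with IFNγ, against 6.52, 6.73 and 6.92 in medium (log2 change -3.07, SE 0.41, adjusted p = 3.78e-05). Of 18 interleukin and receptor genes 5 rose (27.8%) and 1 fell (5.56%). Il1rn, the antagonist of the IL-1 receptor, had 6.91, 6.79 and 6.61 with IFNγ, against 3.96, 3.23 and 4.08 in medium (3.01, SE 0.37). Il12rb1, a chain of the IL-12 and IL-23 receptors, had 6.57, 6.78 and 6.04 with IFNγ, against 0.00, 1.34 and 2.88 in medium (5.06, SE 0.63). Il7r had 5.70, 6.35 and 7.03 with IFNγ, against 3.42, 3.11 and 4.25 in medium (2.77, SE 0.40). Il15ra, which presents IL-15, had 96 reads against 1, a ratio of 85.3 (95% counting interval 14.9 to 3404). Il17ra, the IL-17 receptor, fell, with 5.60, 5.09 and 5.06 with IFNγ, against 6.59, 6.56 and 6.30 in medium (-1.23, SE 0.27). The growth factor gene Csf1, which maintains macrophages, rose, with 11.18, 10.65 and 10.94 with IFNγ, against 8.77, 9.05 and 9.12 in medium (1.94, SE 0.18).

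Of 16 TNF superfamily genes 5 rose (31.25%), and of 25 costimulation, checkpoint and adhesion genes 9 rose (36%) and 1 fell (4%). Over all tested genes 4.67% rose and 2.69% fell. Cd40, a costimulatory receptor in both lists, had log2 values of 7.20, 7.55 and 5.86 with IFNγ, against 3.96, 2.67 and 1.04 in medium (4.31, SE 0.63). Cd274, the checkpoint ligand PD-L1, had 7.02, 7.69 and 7.08 with IFNγ, against 3.42, 2.98 and 4.17 in medium (3.74, SE 0.54). Tnfrsf9, known as 4-1BB, had 5.86, 5.66 and 6.12 with IFNγ, against 3.80, 2.67 and 3.66 in medium (2.50, SE 0.51). Lgals9, a sugar-binding checkpoint ligand, had 8.51, 8.94 and 8.35 with IFNγ, against 5.32, 6.37 and 7.52 in medium (2.20, SE 0.36). The cytokine gene Tnf had 7.87, 8.25 and 6.89 with IFNγ, against 5.85, 6.41 and 6.44 in medium (1.44, SE 0.35), and its call was lost without IFNγ library A (adjusted p = 0.0716), IFNγ library B (0.0901) or medium library A (0.0794), and without the mean-variance trend (0.067). In the NF-kB list 8 of 29 rose, among them Relb (1.94, SE 0.29), Nfkb2 (1.31, SE 0.27), Chuk (1.20, SE 0.18) and Tnip1 (1.04, SE 0.23), that is, subunits, a kinase and an inhibitor of the pathway. Integrin genes went both ways: Itgb7 (1.81, SE 0.25) and Itgal (1.54, SE 0.29) rose and Itgb5 (-1.09, SE 0.20) fell.

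Antiviral genes, known above all as targets of type I interferon, rose in several lists. Of 25 IFIT, viperin and restriction factor genes 16 rose. Rsad2, or viperin, had log2 values of 11.17, 11.49 and 11.28 with IFNγ, against 6.18, 6.17 and 7.19 in medium (log2 change 4.80, SE 0.30, adjusted p = 2.79e-09). Its neighbour Cmpk2 had 8.29, 8.52 and 8.52 with IFNγ, against 3.80, 4.09 and 4.08 in medium (4.45, SE 0.30). The membrane factor Ifitm3 had 8.41, 8.94 and 8.64 with IFNγ, against 3.80, 0.82 and 1.04 in medium (6.77, SE 0.55). All 3 medium libraries held reads of each. Ifit1, which binds viral RNA, had 6.92, 7.91 and 7.24 with IFNγ, against 1.39, 4.03 and 0.00 in medium (5.55, SE 0.67). Mx1, a GTPase against viruses, had 194 reads against none (at least 57.5-fold higher). Of 9 oligoadenylate synthetase genes, which make the activator of an RNA-cutting enzyme, 5 rose. Oasl2 had 6.92, 7.19 and 6.93 with IFNγ, against 1.39, 2.83 and 3.25 in medium (4.52, SE 0.55). Of 11 genes of ISG15 conjugation 8 rose, led by Isg15 itself, with 6.99, 7.31 and 6.43 with IFNγ, against 4.11, 1.34 and 1.04 in medium (4.75, SE 0.60). Of 19 nucleic acid sensors 12 rose. Zbp1, a sensor of Z-form nucleic acid that can start necroptosis, had 484 reads with IFNγ against 1 in medium, a ratio of 430 (95% counting interval 76.8 to 17019). Ifi211 had 10.28, 10.48 and 9.53 with IFNγ, against 3.96, 3.45 and 4.48 in medium (6.13, SE 0.44). Ifi204, a paralog of Ifi211 in the same cluster, had 10.11, 10.24 and 10.20 with IFNγ, against 6.27, 6.32 and 6.74 in medium (3.74, SE 0.23). The Schlafen family had 5 of 6 members higher, and Slfn2, a growth regulator of leukocytes, had 9.38, 8.75 and 9.33 with IFNγ, against 5.63, 5.90 and 5.73 in medium (3.40, SE 0.31). The PARP family had 7 of 16 members higher, and Parp14, an ADP-ribosyl transferase, had 11.15, 10.68 and 10.36 with IFNγ, against 4.57, 5.89 and 6.62 in medium (5.04, SE 0.45). Of the nuclear body list 4 of 6 rose, Sp100 by 5.63 (SE 0.71), Sp110 by 4.49 (SE 0.41), Sp140 by 3.58 (SE 0.43) and Pml by 1.53 (SE 0.31). Of 24 measured TRIM family genes 1 rose, or 4.17%, where 4.67% of all tested genes did, and voom on the recovered reads called 0.

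Cell death genes rose in part. Casp4, the sensor of cytosolic lipopolysaccharide, had log2 values of 7.53, 7.38 and 7.72 with IFNγ, against 3.42, 2.83 and 3.54 in medium (4.28, SE 0.43). Casp1 had 9.63, 9.40 and 9.74 with IFNγ, against 7.95, 7.76 and 8.60 in medium (1.49, SE 0.21). Gsdmd, the pore they open, had 7.86, 7.80 and 7.84 with IFNγ, against 6.64, 6.74 and 6.62 in medium (1.17, SE 0.24). These are the 3 of 14 inflammasome genes that rose. Of 33 apoptosis and necroptosis genes 7 rose and 1 fell, and the risers were on both sides: the survival genes Bcl2 (1.61, SE 0.29) and Bcl2a1b (3.13, SE 0.54), and Zbp1. Casp8, which couples death receptors to apoptosis, had 8.34, 8.87 and 9.05 with IFNγ, against 8.02, 8.32 and 8.67 in medium (adjusted p = 0.329), with overlapping groups. Of 28 p53 targets 4 rose (14.3%) and 1 fell (3.57%), where 4.67% and 2.69% of all tested genes did. The cell cycle inhibitor Cdkn1a rose by 1.00 (SE 0.21) and the p53 ligase Mdm2 by 0.96 (SE 0.21), while Sesn1 fell (-1.51, SE 0.29).

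Enzymes of the itaconate, nitric oxide and arginine list rose in 5 of 13 measured members and fell in 1. Acod1, which makes itaconate, had log2 values of 12.93, 12.97 and 12.49 with IFNγ, against 6.04, 4.91 and 6.28 in medium (log2 change 7.05, SE 0.37, adjusted p = 3.45e-10). Nos2, the inducible nitric oxide synthase, had 5.60, 5.13 and 3.82 with IFNγ, against 0.00, 0.00 and 0.00 in medium, or 94 reads against none (at least 27.8-fold higher), and its call was lost without IFNγ library A (adjusted p = 0.0569). Slc7a2, an arginine transporter, had 7.58, 7.84 and 8.17 with IFNγ, against 6.27, 6.37 and 6.89 in medium (1.35, SE 0.30). Gch1, which makes the cofactor of nitric oxide synthase, had 5.60, 5.52 and 5.49 with IFNγ, against 4.35, 4.49 and 3.99 in medium (1.26, SE 0.30). The fit to the 6 Atg5 KO libraries alone did not call Gch1 (adjusted p = 0.0601), nor did voom (0.051). Hk3, a hexokinase of myeloid cells, had 9.14, 9.09 and 8.91 with IFNγ, against 6.21, 6.55 and 6.94 in medium (2.48, SE 0.23), and Pfkp (0.94, SE 0.20) and Pgk1 (1.04, SE 0.24) also rose among 31 glycolysis and hypoxia genes. Pgk1 lost its call without IFNγ library A (adjusted p = 0.0756). Of the glycolysis and hypoxia list 9.68% rose and 3.23% fell, where 4.67% and 2.69% of all tested genes did. The purine enzyme Pnp had 11.44, 11.50 and 10.48 with IFNγ, against 9.39, 9.36 and 9.66 in medium (1.67, SE 0.25). Samhd1, which breaks down deoxynucleotides, had 11.96, 12.07 and 11.60 with IFNγ, against 10.48, 10.14 and 10.63 in medium (1.46, SE 0.24). Cybb, the catalytic subunit of the phagocyte oxidase, had 13.60, 13.67 and 13.22 with IFNγ, against 11.95, 12.08 and 12.18 in medium (1.43, SE 0.18). Its membrane partner Cyba had 11.41, 11.72 and 11.54 with IFNγ, against 11.27, 11.30 and 11.18 in medium (adjusted p = 0.353). The cytosolic subunit Ncf4 differed by -0.13 (adjusted p = 0.819). Of 7 measured oxidase genes Cybb was the one that passed.

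Of 23 complement and coagulation genes 8 rose and 3 fell, and of 8 receptors for antibody 3 rose. The 3 chains of C1q, the starter of the classical pathway, lie side by side on chromosome 4. C1qb had log2 values of 11.14, 11.31 and 10.23 with IFNγ, against 5.13, 5.12 and 5.13 in medium (log2 change 5.77, SE 0.30, adjusted p = 3.45e-10). C1qc had 10.71, 10.98 and 10.01 with IFNγ, against 6.67, 5.75 and 6.11 in medium (4.39, SE 0.32). C1qa had 8.27, 8.37 and 7.38 with IFNγ, against 1.39, 3.35 and 0.00 in medium (6.43, SE 0.58). The medium values of C1qb were nearly equal in the 3 libraries. The protease gene C1ra had 6.27, 6.07 and 6.71 with IFNγ, against 0.00, 0.00 and 3.54 in medium (5.17, SE 0.84), with reads in medium library C only. Among coagulation genes Plau, the urokinase activator, had 9.98, 10.13 and 9.71 with IFNγ, against 8.38, 8.04 and 8.38 in medium (1.67, SE 0.24). F13a1, the clotting factor chain made by monocytes, fell, with 0.00, 0.00 and 1.35 with IFNγ, against 6.24, 6.37 and 6.98 in medium. It had 2 reads with IFNγ against 271 in medium, a ratio of medium over IFNγ of 153 (95% counting interval 41.8 to 1266). Fcgr4, an activating receptor for IgG, had 7.06, 7.40 and 6.59 with IFNγ, against 3.19, 4.49 and 4.67 in medium (2.90, SE 0.48). Fcgr1, another, had 9.10, 9.55 and 8.96 with IFNγ, against 6.71, 7.55 and 7.50 in medium (1.95, SE 0.26). The inhibitory receptor Fcgr2b had 5.86, 6.52 and 6.76 with IFNγ, against 6.24, 6.70 and 6.80 in medium (adjusted p = 0.787), with overlapping groups.

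Of 30 microglial identity genes 1 rose and 4 fell, or 3.33% higher and 13.3% lower, where 4.67% and 2.69% of all tested genes were. Members went both ways, with log2 changes from -2.12 to 3.56 and a median of 0.03. Aif1, the calcium-binding protein IBA1 used to stain microglia, had log2 values of 9.40, 9.21 and 8.70 with IFNγ, against 5.43, 5.57 and 5.61 in medium (log2 change 3.56, SE 0.26, adjusted p = 1.32e-08). Apoe, the lipid carrier that rises in disease-associated microglia, had 10.54, 10.43 and 10.55 with IFNγ, against 12.05, 12.45 and 12.46 in medium (log2 change -1.81, SE 0.23, adjusted p = 2.06e-05). Mef2c, a transcription factor of microglia, had 10.26, 10.44 and 10.72 with IFNγ, against 11.42, 11.52 and 11.42 in medium (-0.98, SE 0.19). Trem2, a lipid-sensing receptor, had 7.97, 8.47 and 8.30 with IFNγ, against 8.96, 9.17 and 9.25 in medium (-0.88, SE 0.19), with an adjusted p of 0.0532 without IFNγ library A. Cd33, an inhibitory sialic acid receptor, had 2.19, 3.06 and 3.36 with IFNγ, against 5.06, 4.53 and 5.37 in medium (-2.12, SE 0.46), and voom did not call it (adjusted p = 0.0881). Among phagocytic receptors 6 of 24 rose and 2 fell. Cd36, a receptor for lipids and apoptotic cells, had 8.12, 7.95 and 7.81 with IFNγ, against 0.00, 0.00 and 1.64 in medium, that is 792 reads against 2, a ratio of 352 (95% counting interval 97.1 to 2910). Axl, a receptor for dying cells, had 5.10, 4.83 and 4.92 with IFNγ, against 2.90, 1.34 and 0.00 in medium (3.54, SE 0.72). Clec12a, an inhibitory lectin, had 8.16, 8.43 and 8.59 with IFNγ, against 4.35, 4.38 and 6.11 in medium (3.44, SE 0.42). The scavenger receptor Msr1 had 5.67, 6.34 and 7.05 with IFNγ, against 4.35, 4.95 and 3.99 in medium (1.92, SE 0.38).

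**Figure D4:**
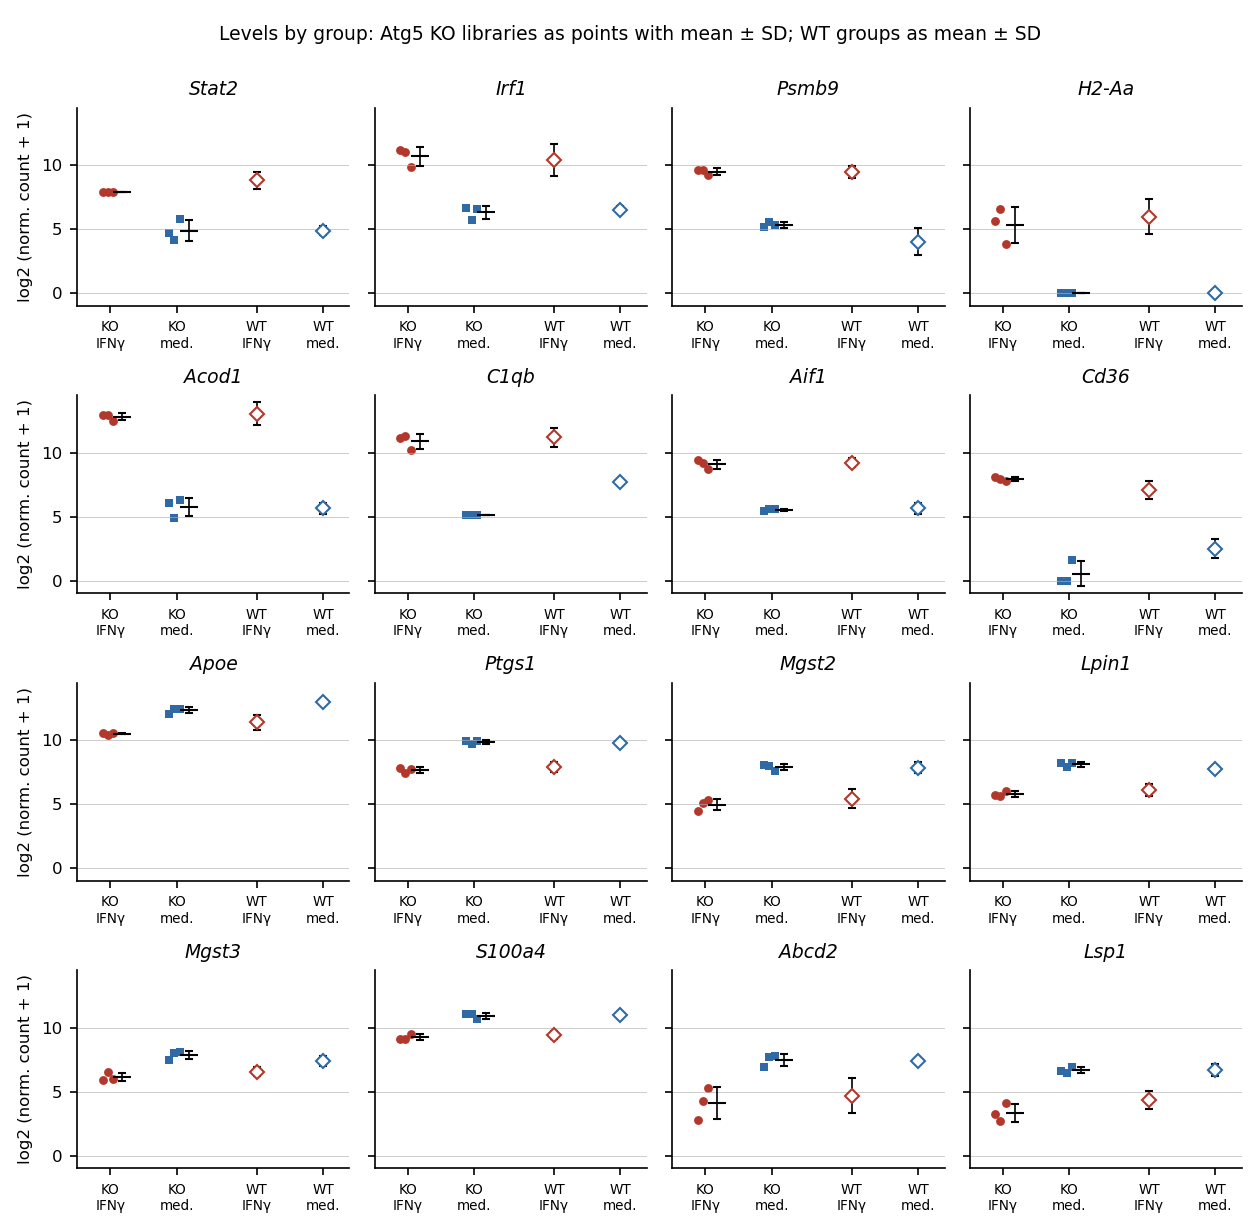
Log2 values of 16 genes. Red circles are the 3 Atg5 KO IFNγ libraries and blue squares the 3 Atg5 KO medium libraries, with mean ± SD as a dash and bar; open diamonds are the means ± SD of the WT IFNγ and WT medium groups. The upper 8 genes rose with IFNγ in Atg5 KO cells and the lower 8 fell, and in WT medium C1qb and Cd36 lie above their Atg5 KO medium values.

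The genes that fell were of varied function, and those named here include some of the largest decreases and some smaller ones. Slc36a2, an amino acid transporter, had log2 values of 0.00, 0.00 and 0.00 with IFNγ, against 5.93, 4.33 and 5.67 in medium, or no read against 109 (at least 40.9-fold higher in medium). Klhl30 likewise had no read with IFNγ against 92 in medium (at least 34.5-fold higher in medium). Asb10 had 5.89, 5.16 and 5.68 with IFNγ, against 8.86, 8.81 and 8.83 in medium (log2 change -3.25, SE 0.41, adjusted p = 2.09e-05). Lsp1, an actin-binding protein of leukocytes, had 3.22, 2.70 and 4.11 with IFNγ, against 6.64, 6.45 and 6.93 in medium (log2 change -3.33, SE 0.42, adjusted p = 2.09e-05). S100a4, a calcium-binding protein of motile cells, had 9.14, 9.14 and 9.51 with IFNγ, against 11.03, 11.03 and 10.63 in medium (log2 change -1.63, SE 0.20, adjusted p = 1.13e-05). The actin bundler Lcp1, or L-plastin, had 12.21, 12.32 and 12.16 with IFNγ, against 13.22, 13.34 and 12.76 in medium (-0.88, SE 0.19). P2ry1, a receptor for ADP, had 3.22, 0.94 and 3.56 with IFNγ, against 5.63, 5.57 and 5.33 in medium (-2.94, SE 0.60). Entpd1, the CD39 enzyme that breaks down ATP and ADP, rose, with 8.82, 6.55 and 6.28 with IFNγ, against 3.19, 5.18 and 4.25 in medium (3.01, SE 0.55), and its treated library A stood above the others. Serpinb1a, an inhibitor of neutrophil proteases, had 7.04, 7.06 and 8.60 with IFNγ, against 9.79, 9.84 and 10.14 in medium (-2.36, SE 0.33). Timp2, an inhibitor of metalloproteases, had 6.18, 6.53 and 6.73 with IFNγ, against 8.19, 7.74 and 8.64 in medium (-1.71, SE 0.29). Lrrc17, a secreted leucine-rich repeat protein, had 1.76, 3.35 and 2.28 with IFNγ, against 5.63, 6.19 and 5.67 in medium (-3.37, SE 0.58).

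Lipid genes supplied many of the grouped decreases. Of 27 cholesterol synthesis genes 6 fell (22.2%) and none rose, with a median log2 change of -0.56 over the list. Over all tested genes 2.69% fell and 4.67% rose. The mevalonate enzyme Mvd had log2 values of 6.31, 6.52 and 6.03 with IFNγ, against 7.43, 7.66 and 7.32 in medium (log2 change -1.19, SE 0.24, adjusted p = 0.00339). Insig1, a sterol sensor, had 9.36, 9.36 and 8.92 with IFNγ, against 10.25, 10.15 and 9.76 in medium (-0.84, SE 0.19). Stard4, a sterol carrier, had 7.79, 7.52 and 7.49 with IFNγ, against 8.66, 8.22 and 8.34 in medium (-0.81, SE 0.19). Without medium library A the adjusted p of Insig1 was 0.0557 and that of Stard4 0.0766, and without IFNγ library C that of Insig1 was 0.0542. Of 19 cholesterol efflux genes 4 fell (21.1%) and none rose, with Apoe among those that fell. Apoc2, a lipoprotein component, had 0.00, 3.35 and 2.03 with IFNγ, against 4.75, 5.29 and 5.04 in medium (-3.24, SE 0.61). The ABC transporter gene Abca9 had 4.83, 4.13 and 4.73 with IFNγ, against 7.64, 7.18 and 7.005 in medium (-2.71, SE 0.41). Mylip, the ligase that removes the LDL receptor, had 7.59, 8.12 and 7.55 with IFNγ, against 9.36, 9.01 and 9.29 in medium (-1.47, SE 0.21). Reads of each remained in at least 2 treated libraries. Among fatty acid genes Lpin1, a phosphatidate phosphatase, had 5.67, 5.66 and 6.06 with IFNγ, against 8.23, 7.90 and 8.21 in medium (log2 change -2.32, SE 0.26, adjusted p = 5.3e-06). The elongase Elovl7 also fell (-1.48, SE 0.31), while the acyl-CoA synthetases Acsl1 (1.21, SE 0.22) and Acsl4 (0.86, SE 0.17) rose. Abcd2, a peroxisomal transporter of very long fatty acids, had 2.80, 4.27 and 5.25 with IFNγ, against 6.94, 7.69 and 7.74 in medium (-3.35, SE 0.56). The peroxisomal oxidase Acox3 had 6.77, 6.79 and 6.69 with IFNγ, against 4.92, 5.45 and 5.17 in medium (1.57, SE 0.28). In the list of 28 fatty acid oxidation and peroxisome genes, Abcd2 and Acox3 were the calls. That is 3.57% each way, near the shares over all tested genes.

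Of 17 eicosanoid enzymes and receptors 2 rose and 3 fell. Ptgs1, the constitutive cyclooxygenase, had log2 values of 7.85, 7.41 and 7.78 with IFNγ, against 9.96, 9.67 and 9.89 in medium (log2 change -2.16, SE 0.20, adjusted p = 5.09e-07). Ptgs2, the inducible one, had 7.72, 8.25 and 7.41 with IFNγ, against 5.06, 6.06 and 5.67 in medium (log2 change 2.20, SE 0.50, adjusted p = 0.00855). The constitutive enzyme thus fell and the inducible one rose, and the groups did not overlap for either. Tbxas1, thromboxane synthase, had 7.31, 6.91 and 6.14 with IFNγ, against 2.90, 4.03 and 4.99 in medium (2.81, SE 0.51). Ltc4s, which makes leukotriene C4, had 0.00, 0.00 and 2.03 with IFNγ, against 4.92, 4.91 and 4.94 in medium (-4.25, SE 0.85). The call of Ptgs2 was lost without medium library A (adjusted p = 0.0517) and without the mean-variance trend (0.0603). Microsomal glutathione transferases fell with Ltc4s, a member of the same superfamily. Mgst2 had 4.49, 5.05 and 5.34 with IFNγ, against 8.09, 7.99 and 7.61 in medium (log2 change -2.94, SE 0.35, adjusted p = 1.04e-05). Mgst3 had 5.92, 6.53 and 5.97 with IFNγ, against 7.47, 8.00 and 8.06 in medium (log2 change -1.70, SE 0.28, adjusted p = 0.00034). Gstm1, a cytosolic transferase, had 7.84, 8.39 and 8.12 with IFNγ, against 9.53, 9.58 and 9.22 in medium (log2 change -1.32, SE 0.19, adjusted p = 8.97e-05). These were the 3 of 39 NRF2 and glutathione genes that fell, and 3 others rose. That is 7.69% each way, where 2.69% of all tested genes fell and 4.67% rose. Blvrb, one of those that rose and an enzyme that reduces biliverdin, had 7.95, 8.09 and 7.72 with IFNγ, against 6.24, 6.62 and 5.84 in medium (1.69, SE 0.28). In the iron list the copper oxidase gene Cp, ceruloplasmin, had 6.89, 7.03 and 7.44 with IFNγ, against 4.75, 4.63 and 4.78 in medium (2.40, SE 0.41). In the list for zinc and copper the copper transporter gene Slc31a2 had 7.57, 7.04 and 6.73 with IFNγ, against 5.59, 5.24 and 5.61 in medium (1.63, SE 0.27).

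Of 51 lysosomal genes 5 rose and 2 fell, or 13.7% called, where 7.36% of all tested genes were. Slc15a3, a peptide transporter of endolysosomes, had log2 values of 9.91, 10.51 and 10.49 with IFNγ, against 7.83, 7.99 and 8.66 in medium (2.14, SE 0.24). The channel gene Tpcn1 had 8.53, 8.23 and 8.32 with IFNγ, against 9.63, 9.47 and 9.50 in medium (-1.18, SE 0.24). Of 41 autophagy machinery genes 4.88% were called: Irgm1 rose and Tecpr1, a tether of autophagosomes and lysosomes, fell, with 7.16, 7.48 and 7.92 with IFNγ, against 8.50, 8.87 and 8.65 in medium (-1.16, SE 0.23). The cargo receptor Sqstm1, or p62, had 10.20, 10.29 and 10.51 with IFNγ, against 10.58, 9.72 and 10.33 in medium (adjusted p = 0.815), with overlapping groups. None of 16 V-ATPase subunits, 36 aminoacyl-tRNA synthetases, 82 cytosolic ribosomal proteins or 16 heat shock proteins passed, where 7.36% of all genes did. At an unadjusted p under 0.05 limma's counts were 1 of 16, 10 of 36, 4 of 82 and 0 of 16. Over all tested genes that count was 2119 of 10981, so the lists were not alike at this looser threshold. Voom on the recovered reads called 0 in each. Of 72 respiratory chain genes Ndufa12 alone passed, with 11.28, 11.07 and 10.89 with IFNγ, against 9.91, 10.32 and 10.06 in medium (0.99, SE 0.22), and of 60 cell cycle genes 1 fell. The proliferation marker Mki67 had 10.34, 9.63 and 10.62 with IFNγ, against 9.03, 9.79 and 9.40 in medium (adjusted p = 0.0957). Malat1, a noncoding RNA kept in the nucleus, had 12.63, 12.62 and 12.27 with IFNγ, against 11.004, 11.70 and 10.97 in medium (1.28, SE 0.25). Neat1, in the same run on chromosome 19, was also called higher. Of 5 measured noncoding RNAs kept in the nucleus 2 rose (40%), where 4.67% of all tested genes did, and voom called 1. That list took 0.118 ± 0.017% of reads with IFNγ, against 0.059 ± 0.014% in medium (SD, n = 3 each). Whether nuclear RNA content differed between the groups, and its part in other results, was not tested.

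Of the 808 genes, 253 that rose and 234 that fell were in none of the 71 lists. Clec9a, a receptor for dead cells known from dendritic cells, had log2 values of 6.91, 6.66 and 3.97 with IFNγ, against 0.00, 0.00 and 0.00 in medium, or 228 reads against none (at least 67.5-fold higher), with an adjusted p of 0.159 by voom. Ifi47, a GTPase gene in the immunity-related cluster of chromosome 11, had 7.98, 8.61 and 7.73 with IFNγ, against 3.80, 0.82 and 3.25 in medium (5.48, SE 0.73). Phf11b had 8.65, 9.18 and 8.42 with IFNγ, against 3.19, 4.83 and 5.87 in medium (4.12, SE 0.44). Fam26f, a membrane protein of activated myeloid cells, had 9.39, 9.19 and 7.65 with IFNγ, against 4.24, 5.02 and 4.84 in medium (4.05, SE 0.58), with library C lowest among the treated. Tmem140 had 5.92, 6.35 and 6.04 with IFNγ, against 2.55, 0.00 and 2.39 in medium (4.46, SE 0.79). The noncoding RNA gene 9330175E14Rik had 7.83, 6.94 and 6.20 with IFNγ, against 2.08, 2.83 and 3.08 in medium (4.33, SE 0.60). The unnamed gene Gm8995 had 8.17, 7.96 and 8.32 with IFNγ, against 4.24, 4.33 and 3.78 in medium (4.03, SE 0.28). On the other side 2310002L09Rik had 0.00, 2.22 and 2.28 with IFNγ, against 4.84, 5.27 and 5.41 in medium (-3.67, SE 0.82). 4930447F24Rik had 4.24, 3.88 and 3.82 with IFNγ, against 6.11, 6.17 and 6.61 in medium (-2.32, SE 0.37). 1500017E21Rik had 2.53, 1.50 and 3.82 with IFNγ, against 4.24, 5.81 and 6.15 in medium (-2.78, SE 0.62). Spink5, a secreted protease inhibitor, had 6.29, 6.07 and 7.40 with IFNγ, against 8.99, 8.72 and 9.10 in medium (-2.35, SE 0.45).

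Many genes that rose lay near each other. Of 511 with a position, 139 (27.2%) had another within 100 kb, where 9.37% of all tested genes had a riser within that distance; for genes that fell the shares were 12.2% and 6.88%. Families of duplicated genes make up many of these runs, and their members can share reads as noted. On GRCm38 the run with the most genes was on chromosome 17 from 34119541 to 34316674, where all 9 tested genes rose: H2-DMa, H2-DMb1, Psmb9, Tap1, Psmb8, Tap2, H2-Ab1, H2-Aa and H2-Eb1. The Ifi200 cluster on chromosome 1 from 173630917 to 174031810 had 8 of 8 higher, and the GTPase cluster on chromosome 11 from 48861968 to 49096974 had 8 of 9. Some runs held genes of more than 1 family, such as Parp14, Dtx3l and Parp9 on chromosome 16 from 35832874 to 35972605 (3 of 3), and Psme1, Psme2 and Irf9 on chromosome 14 from 55578123 to 55610030 (3 of 5).

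The same treatment of WT cells gives the setting for these changes. Of the 513 genes that rose in Atg5 KO cells, 483 (94.2%) also had a positive change in WT and 324 were called there, 63.2% of the Atg5 KO list and 65.2% of the 497 called higher in WT. Of the 295 that fell, 277 (93.9%) also had a negative change in WT and 95 were called, 32.2% of the Atg5 KO list and 40.8% of the 233 called lower in WT. The median WT change of the genes called in Atg5 KO was 1.36 for risers and -0.68 for fallers; since these genes were selected on the Atg5 KO values, their WT changes tend to be smaller, and the sizes are no test of a difference.

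The difference itself, the Atg5 KO change minus the WT change, passed for 0 of 10981 genes (0%) by limma, with 792 at an unadjusted p under 0.05 and a smallest adjusted p of 0.106. Voom on the recovered reads also called 0. Scaling by total reads called 3, and leaving out Atg5 KO IFNγ library B called 3. A missed threshold does not show equal responses; the 95% intervals say how far apart they could be. For Stat2 the changes were 3.04 in Atg5 KO and 3.93 in WT, a difference of -0.89 (95% interval -1.98 to 0.20), and for Irf1 the changes were 4.38 in Atg5 KO and 3.91 in WT, a difference of 0.47 (-0.86 to 1.81). Psmb9 changed by 4.17 in Atg5 KO and 5.42 in WT, a difference of -1.25 (-2.36 to -0.14, adjusted p = 0.656). Acod1 differed by -0.35 (-1.43 to 0.73), Aif1 by -0.0039 (-0.77 to 0.76), Apoe by -0.22 (-0.90 to 0.46) and Ptgs1 by -0.31 (-0.92 to 0.29). Apart from Psmb9, differences of more than 2 on the log2 scale in either direction lay outside these intervals.

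**Figure D5:**
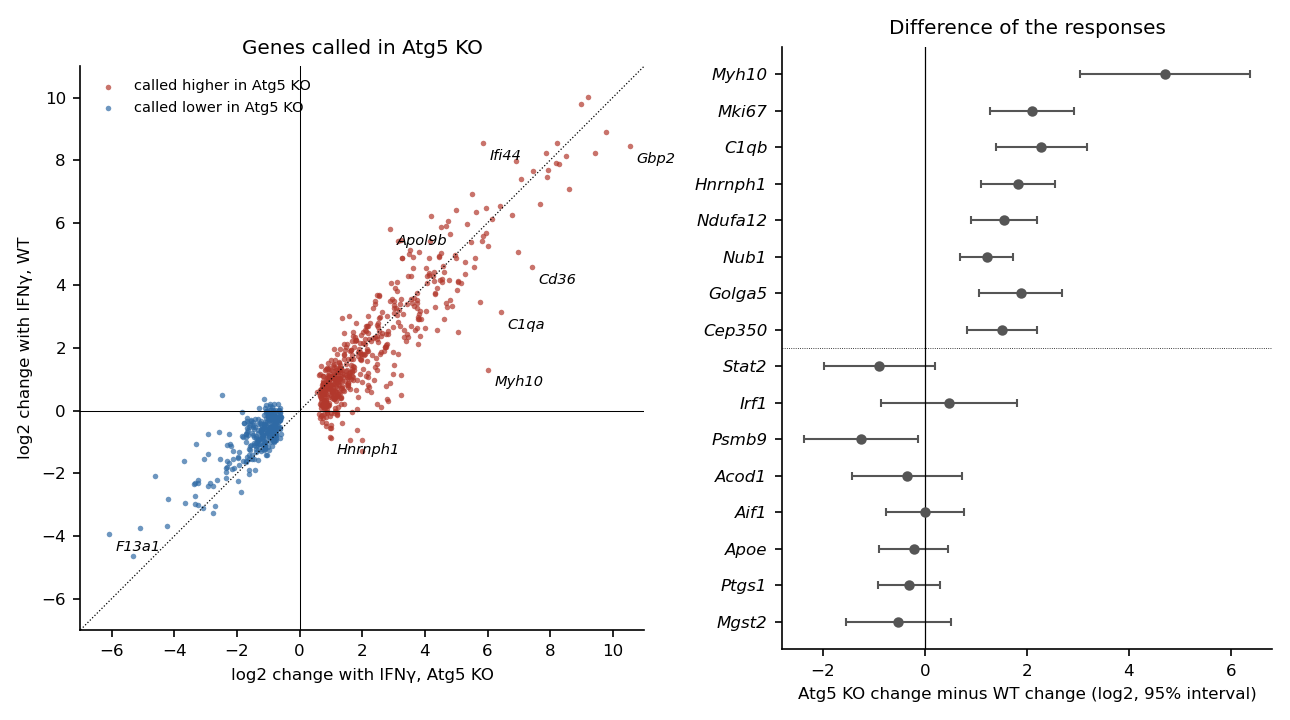
Left, log2 change with IFNγ in Atg5 KO (horizontal) and WT cells (vertical) for the 808 genes called in Atg5 KO; the dotted line marks equal changes. Right, the Atg5 KO change minus the WT change with its 95% interval for 16 genes: above the dotted line the 8 with the smallest unadjusted p, below it 8 well-known members of the response. None passed after adjustment, and the value of Myh10 depends on the 1 added to its counts of 0.

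Apart from Cd36 and Cybb, the genes below were among those with the smallest unadjusted p of the difference. All were chosen after their values were seen and are a description. C1qb changed by 5.77 in Atg5 KO and 3.48 in WT cells (difference 2.28, 95% interval 1.39 to 3.18, adjusted p = 0.106). Its means with IFNγ were 10.89 ± 0.58 in Atg5 KO and 11.19 ± 0.74 in WT, and its means in medium 5.12 ± 0.01 in Atg5 KO and 7.70 ± 0.22 in WT (SD, n = 3 each), so the genotypes stood further apart in medium. Cd36 averaged 7.96 ± 0.15 in Atg5 KO and 7.08 ± 0.72 in WT with IFNγ, and 0.55 ± 0.95 in Atg5 KO and 2.51 ± 0.73 in WT in medium, so its Atg5 KO mean was the higher one with IFNγ and the lower one in medium. Myh10, a nonmuscle myosin heavy chain, had 242 reads with IFNγ and none in medium in Atg5 KO cells (at least 71.7-fold higher), with log2 values of 6.93, 6.72 and 4.40, and a WT change of 1.31 (SE 0.56, adjusted p = 0.19). Mki67 differed in sign, with 0.79 in Atg5 KO and -1.31 in WT cells (difference 2.10, 95% interval 1.28 to 2.92, adjusted p = 0.106). So did Hnrnph1, a splicing factor, with 0.98 in Atg5 KO and -0.85 in WT cells (difference 1.82, 1.11 to 2.54). Ndufa12 changed by 0.99 in Atg5 KO and -0.56 in WT cells (difference 1.55, 0.91 to 2.20). The Atg5 KO call of Hnrnph1 was lost without IFNγ library A (adjusted p = 0.115), IFNγ library C (0.0702), medium library A (0.0517) or medium library B (0.0534), in the Atg5 KO libraries alone (0.0724) and without the mean-variance trend (0.0792). Nub1, which targets NEDD8 conjugates for degradation and is itself induced by interferon, had 10.10, 9.66 and 10.13 with IFNγ, against 8.62, 8.47 and 8.54 in medium in Atg5 KO cells (1.42, SE 0.18), while its WT change was 0.21 (SE 0.18), a difference with an adjusted p of 0.177. Cybb, also chosen after its values were seen, went the other way, with 1.43 in Atg5 KO and 2.47 in WT cells (difference -1.05, -1.59 to -0.50, adjusted p = 0.379).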

How the data were processed

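Cytosolic poly-A RNA of 12 BV2 cultures was sequenced from its 3' ends with barcoded primers, per the labels' protocols. The authors deposited 1 table of log2 values, log2 of the count divided by a size factor per library plus 1. FastQC 0.11.2, STAR, HTSeq 0.6.1, DESeq2 1.10.1 and GRCm38 are named in the submitters' processing notes; annotation release and strandedness are not given in the sources used here, so overlapping and antisense genes cannot be told apart. All deposited values gave whole reads within 0.01 read, and these recovered reads gave the depths.

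Genes at a log2 value of 3 or more in 3 or more of 12 libraries were kept: 206 just passed, in exactly 3 libraries, with mean log2 values of 2.02 with IFNγ and 1.91 in medium in Atg5 KO cells, and 317 just missed, in 2 libraries, with 1.82 and 1.53. limma 3.58.1 in R 4.3.3 fitted 1 mean per group over 12 libraries (8 residual degrees of freedom) and a trended prior; tests were two-sided, with p-values adjusted over all kept genes after Benjamini and Hochberg and a threshold of 0.05. Fold changes on this scale understate changes of low genes. For a group with 0 reads a bound is given against a floor of 3 reads over its 3 libraries, and with 1 to 3 reads a ratio with an exact 95% interval; both cover counting error only, as reads are not known to be independent molecules. The fit was tested on simulated data, where 4.10% of calls were false. Coordinates come from an annotation of GRCm38 and the 10952 kept genes found in it. Alternatives were other moderation, voom, scalings, filters, a pseudocount of 8, the replicate letter as a block, and leaving out libraries.

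Genes named were the 15 largest risers and fallers whose groups did not overlap and whose higher group averaged 5 or more, the 10 largest of each outside the lists, the 10 most abundant of each, up to 6 called members of each list, and known regulators whatever their result; some genes this rule names, and a list of actin genes, are not reported here. The members and the 71 gene lists were chosen with earlier results of these data known.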

Additional observations from a re-analysis of the deposited data

How the results depend on the processing

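The number of genes called in Atg5 KO cells, 808 with 513 higher and 295 lower, stayed within 1.5 times under robust moderation, voom, median centring, scaling by total reads, no filter, a filter at a log2 value of 5 and a pseudocount of 8. Without the mean-variance trend the fit called 418 higher and 220 lower. With only the 6 Atg5 KO libraries 193 genes were called lower. Tested against an absolute log2 change of 1, 159 genes passed, 141 higher and 18 lower. Leaving out 1 library at a time gave 513 to 959 genes called, 356 to 601 higher and 142 to 358 lower, and the lowest totals came without Atg5 KO medium library A (513) and without IFNγ library A (524). The difference between the Atg5 KO and WT responses was called for 0 genes, for 3 after scaling by total reads, and for 0 to 3 when single libraries were left out. Without both IFNγ libraries of letter C, an alternative chosen after the data were seen, it was called for 3 genes. Where these counts moved, the cause was not tested, and fits that left out libraries also rest on fewer of them.

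Same-letter IFNγ and medium libraries of the Atg5 KO cells had deviations from their group means that correlated by 0.076, 0.00060 and 0.098. With 3 libraries a group, these values cannot show whether the letters pair the libraries. On the main axis of variation over the 12 libraries, IFNγ library C lay closest to medium in both genotypes. Its position was 29.1 in Atg5 KO (A 41.2, B 44.0) and 22.2 in WT (A 55.3, B 56.3), where every medium library was negative. With the letter as a replicate block 909 genes were called, 565 higher and 344 lower, and the difference of responses was called for 1 gene. Of 182 called genes named in the text 161 kept their call under every alternative run for single genes, and none changed sign. Uncalled genes near 0 did when single libraries were left out: Atg5 ranged from -0.15 to 0.023, Fcgr2b from -0.39 to 0.059, Ifngr2 from -0.11 to 0.66 and Sqstm1 from -0.12 to 0.31. Without both IFNγ libraries of letter C Ifngr2 was at -0.11. Low counts limit class II and GTPase genes that had no read in medium, and at this depth 36% of simulated 2-fold changes were found.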

Other observations

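Several gene groups outside those described above also held calls in Atg5 KO cells given IFNγ. Stress and unfolded protein response genes rose in 6 of 38 measured members and fell in none. Small nucleolar RNA host genes, whose spliced transcripts carry no known protein, rose in 3 of 14 measured members. Of 21 Toll-like receptor genes and adaptors 4 rose, among them Cd180, a regulator of lipopolysaccharide responses, with log2 values of 10.28, 10.25 and 10.23 with IFNγ, against 9.21, 9.36 and 8.93 in medium (log2 change 1.09, SE 0.20, adjusted p = 0.00128). Cathepsin genes rose in 3 of 15 measured members and fell in 1. Ctsc, the protease that activates granule proteases, had 12.54, 12.56 and 11.85 with IFNγ, against 10.53, 10.82 and 10.62 in medium (log2 change 1.66, SE 0.25, adjusted p = 0.000133), and Serpinb9, an inhibitor of granzyme B, had 7.48, 7.58 and 6.80 with IFNγ, against 4.84, 4.33 and 4.33 in medium (log2 change 2.79, SE 0.40, adjusted p = 9.11e-05). The shares over all tested genes were 4.67% higher and 2.69% lower, and the lists were not tested.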
